A study of Homo sapiens with 12 samples.

Results

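The 10 genes described here are TCEAL1, the target of an inducible hairpin, and its relatives among the TCEAL, BEX and TFIIS genes: TCEAL3, TCEAL4, TCEAL8, TCEAL9, BEX4, TCEA1, TCEA2, TCEA3 and TCEANC2. They were taken by symbol from a deposited table of 28576 genes, and 10 of 10 were found and passed the filter on low values. The RNA came from SHEP, an established human neuroblastoma cell line, and was enriched for poly(A) transcripts before sequencing. The 12 libraries fall into 4 groups of 3, and every group, the controls included, carried both a MYCN-ER fusion and a doxycycline-inducible short hairpin RNA (shRNA) against TCEAL1. Ctrl received neither compound, OHT received 200 nM 4-hydroxytamoxifen (4-OHT), which activates the fusion, Dox received 1 µg/ml doxycycline, which induces the hairpin, and OHT_Dox received both. Cells with the compounds but without the constructs, or with a second hairpin, were not analysed here. An effect of doxycycline itself and an effect of the hairpin therefore cannot be told apart. The same holds for 4-OHT itself and the active fusion. Nor can an action of the hairpin on other RNAs be told apart from a consequence of lower TCEAL1. Treatment times, and whether the 3 replicates of a group are 3 cultures, are not stated in the labels, so p-values measure only the spread between these libraries. The comparisons asked whether the hairpin lowered TCEAL1 and which of the 9 relatives it left at their level, with and without active MYCN.

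TFIIS is a transcription elongation factor. When RNA polymerase II slides backwards and arrests, TFIIS inserts a zinc ribbon into the enzyme and stimulates it to cut its own transcript, so that synthesis can resume. TCEA1 encodes the widely expressed form, TCEA2 and TCEA3 encode tissue-restricted forms, and TCEANC2 encodes a protein with a domain like the amino-terminal domain of TFIIS. The TCEAL genes (transcription elongation factor A-like) encode small proteins named for their similarity to TFIIS, and the BEX genes (brain-expressed, X-linked) are their close relatives in the same cluster on the long arm of the X chromosome. Among neuroblastoma lines SHEP belongs to the mesenchymal type and has no amplified MYCN of its own.

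The sequence of the hairpin is not given in the sources used here, so the closest stretches between TCEAL1 and its relatives are shown instead, because a hairpin acts on RNAs whose sequence it matches. Coding transcripts of GENCODE release 29 were compared on the sense strand. No run of 19 bases was shared between a coding transcript of TCEAL1 and one of any other member (0 for each of the 9). Shorter or partial matches to the hairpin itself could not be assessed, so this count does not show which RNAs it can act on. The longest shared run was 15 bases with TCEAL8, 13 with TCEAL9 and with TCEAL4, and 12 with TCEAL3. Each is written 5′ to 3′ as in the RNA's DNA-sense strand, with no part marked, and for TCEAL8 it is 1 of 2 runs of that length.
TCEAL1 and TCEAL8: aagagtaagaaacaa
TCEAL1 and TCEAL9: atttaagcaatga
TCEAL1 and TCEAL4: catttttgtaaaa
TCEAL1 and TCEAL3: tgaggagatgat
For TCEA1, TCEA3, BEX4 and TCEANC2 the longest run was 11 bases, and for TCEA2 it was 10. The 1 exception to the absence of longer matches lay in annotation: a non-coding transcript of TCEAL3 runs into TCEAL1 on the same strand and shares 287 exonic bases with it, and through it 269 words of 19 bases were common to both genes.

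The promoters of the cluster are shown because most members there hold the motif CACGTG, the E-box that MYC proteins are known to bind. Promoter sequences from RefSeq (GRCh38.p14, 250 bases before to 50 after each start) were found for 8 of the 10 members, all except TCEA1 and TCEA3. Each window below has 30 bases on the gene's own strand, 5′ to 3′, with CACGTG in capitals, or in TCEAL9 the 6 bases that stand in its place. CACGTG began 31 bases before the start in TCEAL8, 56 in TCEAL1, 80 in TCEAL3, 10 in TCEAL4, and 19 or 3 in BEX4, which has 2 starts. The 6 bases in its place in TCEAL9, CATGTG, began 37 bases before the start.
TCEAL8 (chrX:103255169-103255198, minus strand): tgacgcgactctCACGTGaccaggagtcga
TCEAL9 (chrX:103356457-103356486, plus strand): tgacgtagatctCATGTGaccaggagtcga
TCEAL1 (chrX:103628907-103628936, plus strand): acgcgcgtccctCACGTGaccaggagcctc
TCEAL3 (chrX:103607871-103607900, plus strand): tgacgcggcgctCACGTGacccgccgggcg
TCEAL4 (chrX:103585493-103585522, plus strand): ggctgcggcattCACGTGatctgcacgggc
BEX4 (chrX:103215077-103215106, plus strand): tgacaacagcccCACGTGaccggccaacac
CACGTG, which reads the same on both strands, was in the window of 5 of the 8 matched members and in that of 2396 of 27305 genes (8.77%). The longer form TCACGTGA, which contains it, was in 4 of the 8 members and in 321 genes (1.18%). The TCEAL9 window was chosen within its promoter sequence as the best match to the TCEAL8 window. It had 25 of 30 bases in common with that window and held CATGTG where TCEAL8 has CACGTG. The other windows were placed by CACGTG and not by best match, so their counts are not like for like with that of TCEAL9. With the 6 bases of the motif included, TCEAL1 had 22, TCEAL3 21, and TCEAL4 and BEX4 17 each. TCEANC, a gene elsewhere on the X chromosome that also holds CACGTG, had 13. Both hexamers match the general E-box form, CANNTG on either strand. CATGTG, searched on both strands, was in 3651 genes (13.4%) and in no other matched member. Over the 13 TCEAL and BEX genes with a promoter entry, 11 held CACGTG. A match describes these letters in these windows, and binding was not measured in these libraries.

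Levels in untreated cells covered a wide range. In reads per 1000000 reads of the library (CPM), divided by the length of each gene's exons (GENCODE release 29), TCEA1 was highest in Ctrl at 37.3 ± 1.62 CPM per kilobase (SD, n = 3). TCEAL9 at 27.9 ± 1.66 and TCEAL8 at 27.8 ± 2.15 came next, and their libraries overlapped, so their order is not resolved. TCEAL4 followed at 22.6 ± 1.11, TCEAL3 at 9.21 ± 0.0639, TCEAL1 at 6.14 ± 0.498, TCEA2 at 5.39 ± 0.246 and TCEANC2 at 2.15 ± 0.0361 CPM per kilobase, each apart from its neighbours in all 3 libraries. BEX4 at 0.727 ± 0.197 and TCEA3 at 0.644 ± 0.102 were lowest and overlapped. The hairpin's target was thus the least expressed of the 5 TCEAL members by this measure. The order depends on the gene model: per kilobase of the longest coding transcript, TCEAL4 (36.2) came second, TCEA2 (14.9) moved above TCEAL1 (8.19), and TCEA3 (1.37) above BEX4 (0.727).

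**Figure D1:**
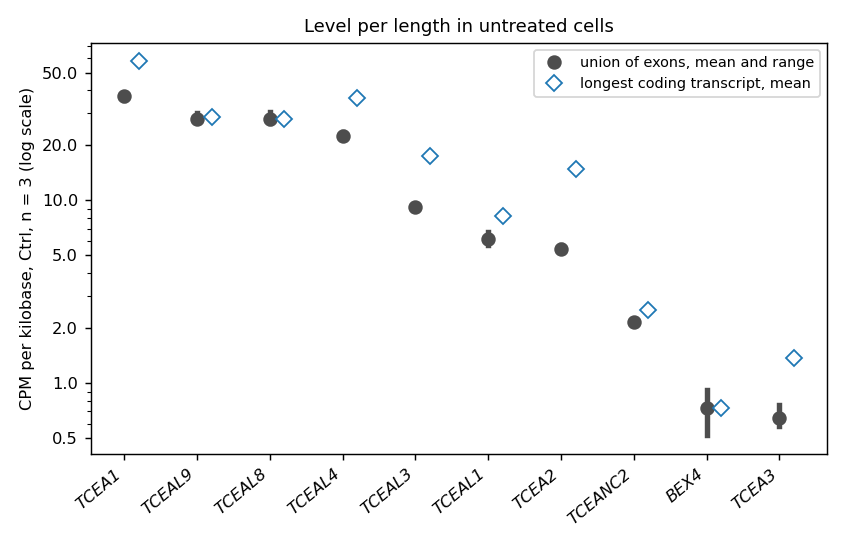
Level per length of the 10 genes in the 3 Ctrl libraries, in CPM per kilobase on a log axis, ordered by the mean. Filled points are means over the union of exons with a bar from the lowest to the highest library, and open diamonds are means over the longest coding transcript; TCEA1 is highest at 37.3 and TCEA3 lowest at 0.644 CPM per kilobase of exon.

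Reads of most members could be assigned to 1 gene. In GENCODE transcripts TCEAL8, TCEAL9, TCEA2 and TCEA3 shared no word of 50 bases with another gene, and TCEANC2 shared 0.978% and BEX4 0.302% of theirs. TCEA1 shared 19.9% of its words, all with the pseudogene TCEA1P2, which was listed at 16.5 to 20.7 CPM, so a part of the reads of TCEA1 is uncertain. TCEAL3 shared 15% of its words, mostly with TCEAL6, which was at or below 0.262 CPM in every library. TCEAL1 shared 9.38% of its words, all with TCEAL3, and TCEAL4 shared 1.21% of its words. How the authors' counting treated such reads is not given in the sources used here.

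The smallest of the 12 libraries, replicate 3 of OHT_Dox, held 44466458 reads and the largest, replicate 3 of Ctrl, 57694970, recovered as whole reads from the deposited CPM. Replicates of a group differed by more than sampling noise. The cell line was checked by its markers: 5 mesenchymal genes (VIM, FN1, PRRX1, SNAI2 and YAP1) summed to 3636 to 3919 CPM in Ctrl, 3496 to 3723 in OHT, 2953 to 3154 in Dox and 2943 to 3177 in OHT_Dox. Epithelial markers summed to at most 2.10 and haematopoietic markers to at most 0.450 CPM in any library. The mesenchymal sum was lower in all Dox libraries than in all libraries without Dox, and its part in the changes with Dox below was not tested. VIM carried most of that sum, with a mean of 2903 CPM in Ctrl and 2359 in Dox, and not all 5 genes were lower: YAP1 was at 84.5 to 100.7 CPM in Ctrl and 103 to 112 in Dox, and PRRX1 had means of 66.5 and 71.6 CPM. Adrenergic markers summed to 58.4 to 63.2 CPM in Ctrl, 65.8 to 73.6 in OHT, 56.4 to 61.5 in Dox and 70.5 to 74.9 in OHT_Dox, higher with OHT in both Dox states. HAND2 carried most of it, with means of 50.5, 59.8, 49.2 and 63.1 CPM in the same order. MYCN RNA, to which the fusion may contribute, was at 436 to 572 CPM in Ctrl, 471 to 644 in OHT, 513 to 564 in Dox and 376 to 470 in OHT_Dox. It fell by 0.34 ± 0.10 from Dox to OHT_Dox (limma adjusted p = 0.0191). The part of the adrenergic sum and of MYCN RNA in the members' changes with OHT was not tested.

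TCEAL1 RNA fell when the hairpin was induced, both with and without active MYCN. In Ctrl it was at 9.71, 9.11 and 10.7 CPM, and in Dox at 2.62, 2.54 and 2.74 CPM. With OHT it was at 8.23, 9.75 and 8.99 CPM, and with both compounds at 2.58, 2.50 and 1.73 CPM. All Dox libraries lay below all libraries without Dox, and the residual level rested on 77 to 145 reads per library, against 454 to 617 without Dox. The mean in Dox was 26.7% of that in Ctrl, and the mean in OHT_Dox 25.2% of that in OHT. On the log2(CPM + 0.5) scale used for all tests, which understates the change of genes at a few CPM, TCEAL1 fell by 1.72 ± 0.13 (SE; 95% interval -1.99 to -1.45; adjusted p = 1.52e-07, limma with Benjamini-Hochberg adjustment over 18674 genes) without OHT and by 1.79 ± 0.13 (-2.06 to -1.52; limma adjusted p = 7.79e-08) with OHT. On the recovered reads, edgeR gave -1.95 and -1.99. The 2 changes differed by -0.07 ± 0.18 (95% interval -0.45 to 0.32), and the limma test of that difference gave an adjusted p of 0.895. In bulk samples fewer cells with an RNA and less of it per cell cannot be told apart.

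A minority of the genes tested was called with Dox. Without OHT, 2.61% of the 18674 genes tested fell and 5.68% rose with Dox, and 2 of the 10 members fell and 0 rose. With OHT, 1.59% of genes fell and 0.509% rose, and again 2 of 10 members fell and 0 rose. Averaged over both states, 3.37% of genes fell and 4.77% rose, and the same 2 of 10 members fell. The hairpin was aimed at 1 of the 2, which leaves 1 of 9 relatives to set beside these shares. The median change without OHT was -0.02 over the 9 relatives and 0.05 over all genes tested. Rescaling the libraries by trimmed-mean factors turned the balance over all genes without OHT from 1061 that rose and 487 that fell to 528 and 756, and averaged over both states from 891 and 630 to 466 and 914, while the same 2 members were called. Dox against Ctrl and OHT_Dox against OHT share no library.

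**Figure D2:**
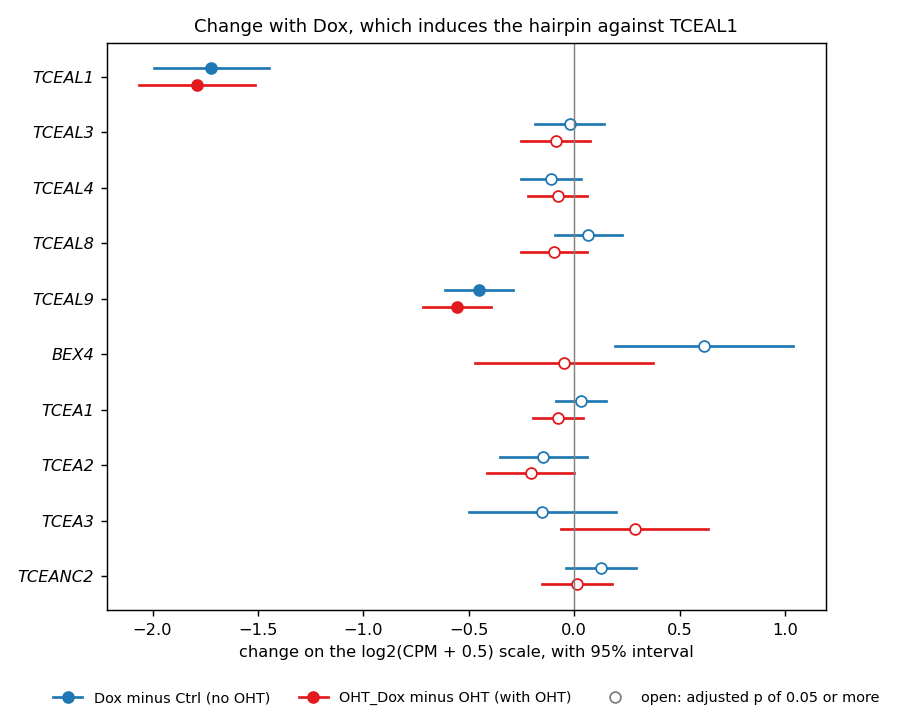
Change of each gene with Dox on the log2(CPM + 0.5) scale, without OHT in blue and with OHT in red, as the limma estimate with its 95% interval. Filled points have an adjusted p below 0.05: TCEAL1 near -1.7 and -1.8 and TCEAL9 near -0.5 are filled in both states, and the other 8 genes are open.

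Of the other 9 members, TCEAL9 alone was called with Dox, and it fell. TCEAL9, known before as WBP5, encodes a small protein that binds WW domains. It was at 53.2, 58.9 and 53.3 CPM in Ctrl and at 40.9, 40.3 and 39.2 CPM in Dox. With OHT it was at 34.6, 39.2 and 37.6 CPM, and with both compounds at 27.5, 25.7 and 22.3 CPM. The Dox libraries did not overlap their controls in either state. The fall was 0.45 ± 0.08 on the log2 scale without OHT (-0.61 to -0.29; limma adjusted p = 0.00242) and 0.56 ± 0.08 with it (-0.72 to -0.39; limma adjusted p = 2.54e-04), so that 72.7% and 67.8% of the mean remained. These calls held in all 21 alternative fits of each comparison. Averaged over both states, TCEAL9 fell by 0.50 ± 0.05 and TCEAL1 by 1.75 ± 0.09 with Dox.

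The remaining TCEAL members were not called with Dox. TCEAL3 was at 21.4, 21.1 and 21.3 CPM in Ctrl and at 20.1, 20.8 and 21.8 CPM in Dox, which overlapped, a difference of -0.02 ± 0.08 (-0.19 to 0.14). TCEAL4 was at 54.2, 59.8 and 56.8 CPM in Ctrl and at 53.2, 54.6 and 50.1 CPM in Dox, a difference of -0.11 ± 0.07 (-0.25 to 0.03). TCEAL8 was at 32.6, 32.4 and 37.1 CPM in Ctrl and at 37.1, 36.5 and 33.3 CPM in Dox, a difference of 0.07 ± 0.08 (-0.09 to 0.22). With OHT the differences were -0.09 ± 0.08 for TCEAL3, -0.08 ± 0.07 for TCEAL4 and -0.10 ± 0.08 for TCEAL8. Averaged over both states, the 95% intervals for a change with Dox ran from -11.2% to 4.3% for TCEAL3, from -12.7% to 0.3% for TCEAL4 and from -8.4% to 6.9% for TCEAL8, as changes of CPM + 0.5. TCEAL8 shares the longest run with TCEAL1, at 15 bases, and TCEAL3 overlaps TCEAL1 in the annotation, and neither was called. TCEAL9, which was called, shares a run of 13 bases, as does TCEAL4, which was not. Where the hairpin lies in TCEAL1 is not known, so these runs do not rank the members by its possible action.

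The TFIIS genes proper were not called with Dox either. TCEA1 was at 169, 169 and 156 CPM in Ctrl and at 170, 172 and 162 CPM in Dox. With OHT it was at 162, 176 and 168 CPM, and with both compounds at 160, 170 and 150 CPM. The 4 groups overlapped, and the averaged change with Dox was -0.02 ± 0.04, an interval of -7.2% to 4.2%. TCEA2 was at 25.4, 25 and 27.2 CPM in Ctrl and at 20.9, 22.6 and 26.8 CPM in Dox. With OHT its 3 values were 29.6, 24.4 and 24.0 CPM, against 22.3, 20.4 and 24.6 CPM with both compounds. Its averaged change of -0.18 ± 0.07 (-20.0% to -2.0%) had a limma adjusted p of 0.125, and DESeq2 on the recovered reads called it at an adjusted p of 0.0321. TCEA3, listed at 1.53 to 2.68 CPM and 79 to 151 reads over the 12 libraries, had an averaged change of 0.07 ± 0.12, an interval of -11.6% to 24.3%.

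TCEANC2 was higher in all 3 Dox libraries (26.8, 27.9 and 31.5 CPM) than in Ctrl (25.8, 26.6 and 26.2 CPM), by 0.13 ± 0.08 on the log2 scale, which did not pass the test (limma adjusted p = 0.326). With OHT it was at 26.2, 22.5 and 22.3 CPM, and with both compounds at 24.6, 24.2 and 22.8 CPM, which overlapped. BEX4 was the noisiest member. It was at 0.691, 0.993 and 1.21 CPM in Ctrl and at 2.28, 1.16 and 1.88 CPM in Dox, and with OHT at 1.23, 1.13 and 1.12 CPM against 1.23, 0.758 and 1.39 CPM with both compounds. Its difference without OHT, 0.62 ± 0.20 (0.19 to 1.04), had a limma adjusted p of 0.0630, and that with OHT was -0.05 ± 0.20. The test of the difference between these 2 changes gave -0.66 ± 0.29 and a limma adjusted p of 0.282. These values rest on 38 to 126 reads per library, an even number in each. If both ends of a fragment were counted, the fragments are fewer than these reads, which was not tested.

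**Figure D3:**
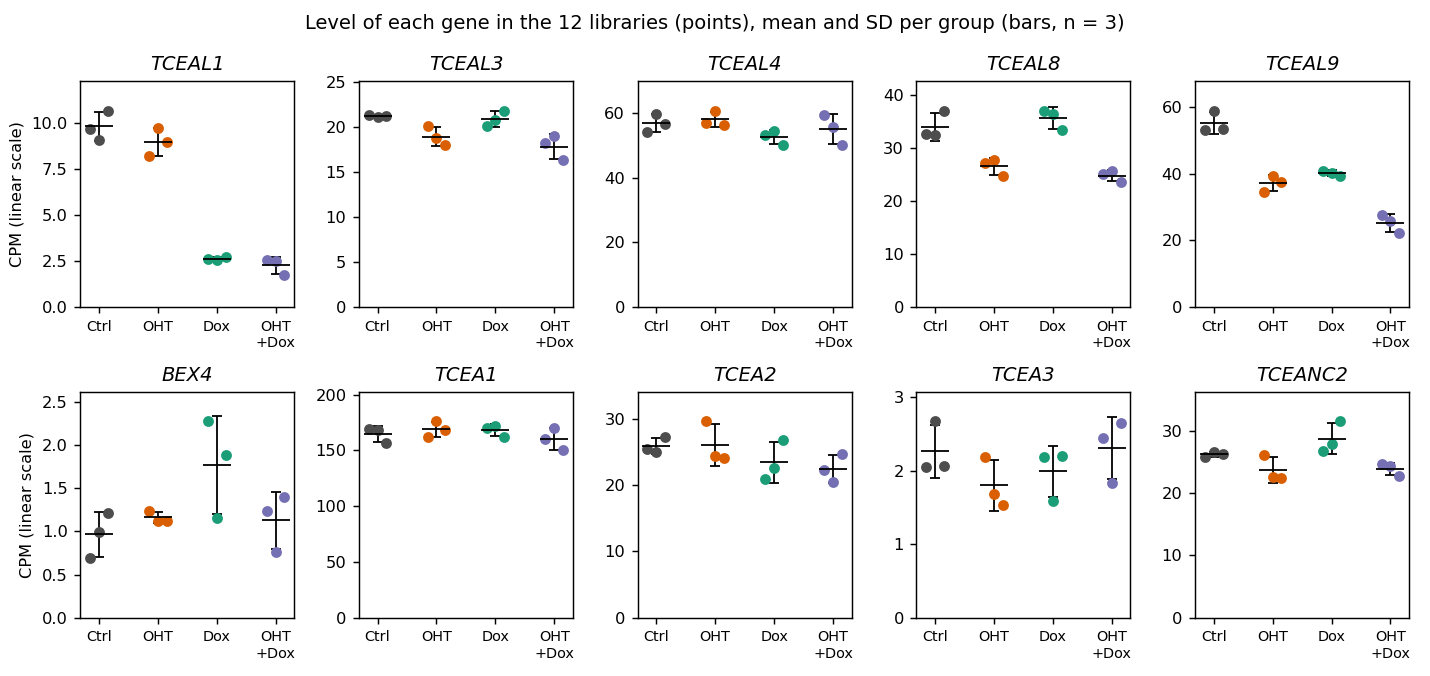
Level of each gene in CPM (linear axes from 0, a separate scale for each gene) in the 12 libraries, shown as points by group, with a bar at the group mean and 1 SD on either side (n = 3). TCEAL1 drops from 8.23 or more to 2.74 or less CPM in the Dox groups, TCEAL9 drops with either compound and most with both, TCEAL8 drops with OHT, and the TFIIS genes TCEA1, TCEA2 and TCEA3 overlap between groups that differ by 1 compound.

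Whether a relative changed less than the target was tested directly, as the log2 ratio of each member to TCEAL1 within a library. The ratio rose with Dox for all 9 relatives, by 1.25 for TCEAL9, 1.58 for TCEA2, 1.66 for TCEAL4, 1.70 for TCEAL3, 1.73 for TCEA1, 1.74 for TCEAL8, 1.82 for TCEA3, 1.83 for TCEANC2 and 2.04 for BEX4. Each of the 9 gave p = 0.005 in an exact two-sided permutation test within OHT states (12 libraries, 400 arrangements), which is the smallest value the design allows, and 0.005 after adjustment over the 9. The 9 tests share the TCEAL1 values and are not independent of each other. TCEAL1 was far lower in every Dox library, so nearly any gene without a similar fall would reach this p. The tests therefore do not show that a relative kept its own level. TCEAL9, which fell itself, had the smallest rise of the ratio, and it too differed from TCEAL1.

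More genes were called with OHT than with Dox. Without Dox 8.79% of genes fell and 12.6% rose, and 2 of 10 members fell and 0 rose. With Dox 14.5% of genes fell and 11.5% rose, and 4 of 10 members fell and 0 rose. The 4 became 3 with trimmed-mean rescaling, and 2 without Dox replicate 3 or without OHT_Dox replicate 3. Averaged over Dox states 17.8% of genes fell and 16.2% rose, and 4 of 10 members fell and 0 rose. The median change in the averaged comparison was -0.15 over the members and -0.03 over all genes tested. For the limma interaction between OHT and Dox, 1 of 10 members, BEX4, and 2879 of 18674 genes had an unadjusted p under 0.05. No member had a called interaction (0 of 10), and 0% of all genes did. That background moved with 1 library: without Ctrl replicate 1, 272 genes were called higher and 767 lower, and still 0 members. DESeq2 called 1 gene, not a member.

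OHT lowered TCEAL9 and TCEAL8 in both Dox states and left TCEAL1 uncalled. TCEAL9 fell by 0.56 ± 0.08 from Ctrl to OHT (-0.73 to -0.40; limma adjusted p = 2.35e-05) and by 0.67 ± 0.08 from Dox to OHT_Dox (-0.83 to -0.50; limma adjusted p = 3.26e-06). The OHT libraries had 27.2, 27.6 and 24.8 CPM of TCEAL8 and the OHT_Dox libraries 25.1, 25.7 and 23.6 CPM, below all libraries of Ctrl and Dox given above. It fell by 0.35 ± 0.08 without Dox (limma adjusted p = 0.00216) and by 0.51 ± 0.08 with Dox (limma adjusted p = 4.82e-05). TCEAL1 differed by -0.12 ± 0.13 and -0.19 ± 0.13 with OHT (limma adjusted p = 0.555 and 0.316), and its libraries overlapped in both states. The TCEAL9 and TCEAL8 calls held in all 21 alternative fits of each comparison.

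TCEAL3 and TCEANC2 fell by less. The OHT libraries had 20.1, 18.8 and 18.0 CPM of TCEAL3 and the OHT_Dox libraries 18.2, 19 and 16.3 CPM, below all libraries of the matching groups without OHT. It differed by -0.16 ± 0.08 without Dox (limma adjusted p = 0.156) and fell by 0.23 ± 0.08 with Dox (limma adjusted p = 0.0389). TCEANC2 differed by -0.15 ± 0.08 without Dox (limma adjusted p = 0.208) and fell by 0.26 ± 0.08 with Dox (limma adjusted p = 0.0207). Averaged over Dox states both fell, TCEAL3 by 0.19 ± 0.06 (limma adjusted p = 0.0102) and TCEANC2 by 0.20 ± 0.06 (limma adjusted p = 0.00829), and these averaged calls held in the 20 alternatives. The calls within the Dox state are less firm: without Dox replicate 3 the limma adjusted p was 0.134 for TCEAL3 and 0.122 for TCEANC2, and without OHT_Dox replicate 3, the shallowest library, 0.173 and 0.0798. For TCEAL3 the call was also lost in other fits, among them trimmed-mean rescaling (limma adjusted p = 0.0622) and edgeR (adjusted p = 0.0684). Over all 21 alternative fits, with the call kept or lost, its adjusted p from limma, edgeR or DESeq2 ran from 0.0267 to 0.173.

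TCEAL4, the TFIIS genes and BEX4 were not called with OHT. TCEAL4 was at 57.1, 60.9 and 56.4 CPM with OHT alone and at 59.5, 55.7 and 50.2 CPM with both compounds, and its averaged change was 0.05 ± 0.05, an interval of -3.7% to 10.7%. The averaged intervals were -6.8% to 4.7% for TCEA1, -11.3% to 8.7% for TCEA2 and -18.3% to 14.8% for TCEA3. BEX4 differed by 0.20 ± 0.20 without Dox and by -0.47 ± 0.20 with it (limma adjusted p = 0.545 and 0.0977). In the comparison within Dox, leaving out Dox replicate 2 took BEX4 past the threshold, at -0.68.

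**Figure D4:**
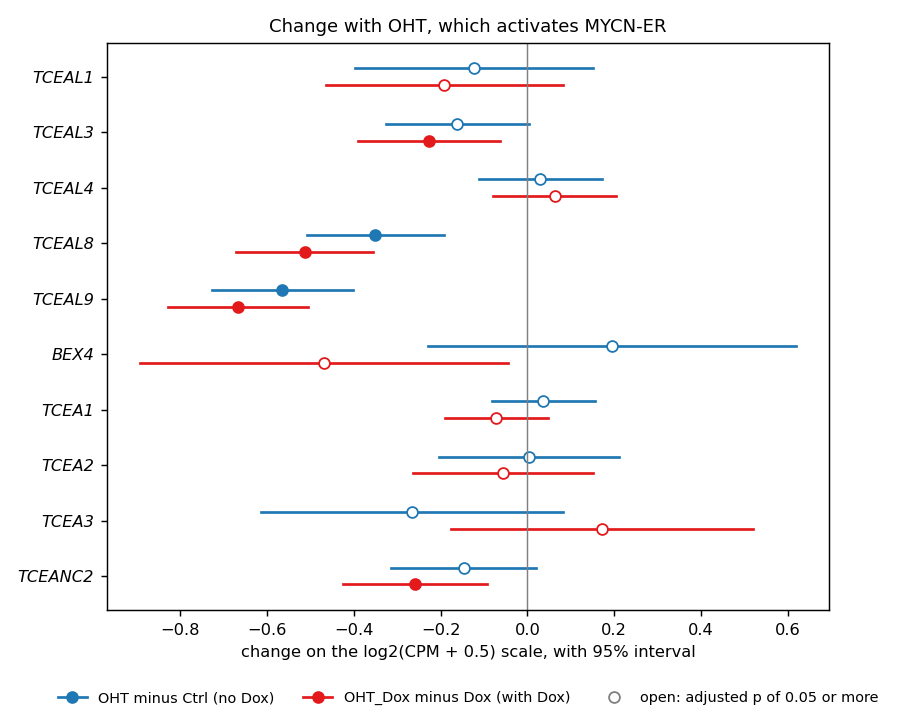
Change of each gene with OHT on the log2(CPM + 0.5) scale, without Dox in blue and with Dox in red, as the limma estimate with its 95% interval. Filled points have an adjusted p below 0.05: TCEAL8 and TCEAL9 are filled in both Dox states and TCEAL3 and TCEANC2 with Dox only, which is no test of a difference between the states.

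TCEAL9 was therefore the 1 member called with each compound. Its mean fell from 55.2 ± 3.28 CPM (SD, n = 3) in Ctrl to 37.1 ± 2.34 in OHT, 40.1 ± 0.893 in Dox and 25.2 ± 2.68 in OHT_Dox, which is 45.7% of Ctrl. The OHT and Dox libraries overlapped each other, and OHT_Dox lay below all others. The limma interaction was -0.10 ± 0.11 (-0.33 to 0.13; adjusted p = 0.693), so a departure from the sum of both changes on the log2 scale was not detectable with 3 libraries a group. TCEAL1, in contrast, was near 2 levels, set apart by Dox.

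**Figure D5:**
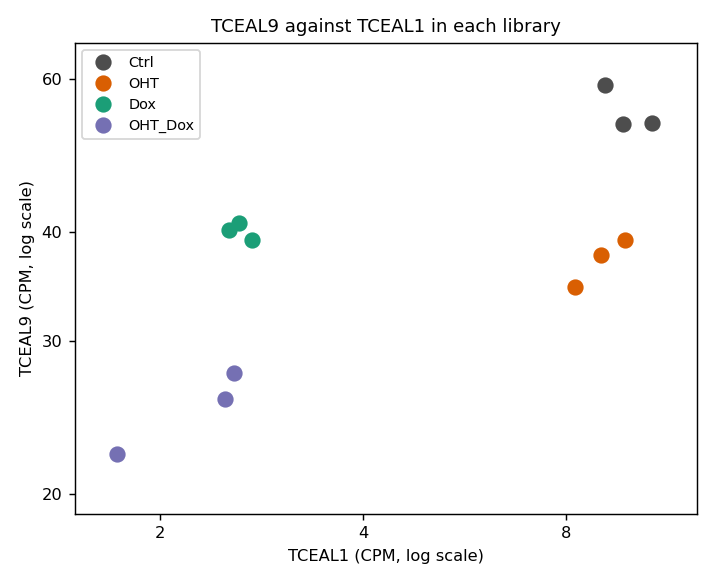
TCEAL9 against TCEAL1 in each of the 12 libraries, both in CPM on log axes, coloured by group. Dox moves the points left along TCEAL1 and down along TCEAL9, OHT moves them down, and the 3 OHT_Dox libraries are lowest for TCEAL9, at 22.3 to 27.5 CPM, while their TCEAL1 values overlap those of Dox.

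The genes with group means most like those of each called member were found among 11688 genes with a symbol and a mean of at least 5 CPM, by the root mean square (RMS) difference of the 4 group means on the log2 scale, each gene centred on its own mean. This is a description over 4 groups. No gene came close to TCEAL1: the nearest were SNAI2 (RMS 0.29), a transcription factor of mesenchymal cells and 1 of the markers above, COL6A3 (0.30), a collagen VI chain, and LSM6 (0.31), a subunit of the LSM ring that binds RNA. SNAI2 itself was at 8.91 to 10.1 CPM in Ctrl and 3.28 to 4.27 CPM in Dox. For TCEAL9 they were RAB11FIP1 (0.016), an effector of RAB11 in recycling endosomes, PLAU (0.043), the urokinase plasminogen activator, and C10orf55 (0.043), which lies on the opposite strand and has 916 of its 2514 exonic bases within PLAU, so the last 2 may count the same reads. For TCEAL8 they were ERCC5 (0.013), a nuclease of nucleotide excision repair, SGO2 (0.017), a protector of centromeric cohesin, and KIF11 (0.018), a mitotic kinesin. ARFGAP3, WASF2 and SEMA4B were nearest to TCEAL3, and GABARAPL1, RAB21 and BCAP29 to TCEANC2, all within an RMS of 0.007, where flat profiles lie close together.

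Of the 8 other TCEAL and BEX genes, BEX3 was expressed at a level that could be tested, and it was at 112 to 146 CPM in Ctrl, 103 to 113 in OHT, 100.4 to 107 in Dox and 104 to 111 in OHT_Dox. BEX3 fell by 0.27 ± 0.07 with Dox (limma adjusted p = 0.0309) and by 0.21 ± 0.07 with OHT (limma adjusted p = 0.0430), both against Ctrl, which these comparisons share, and it was not called with either compound in the presence of the other (-0.02 and 0.04). With trimmed-mean rescaling its call with OHT was lost (-0.21 ± 0.08; limma adjusted p = 0.0658) and that with Dox was kept (-0.32 ± 0.08; limma adjusted p = 0.0214). BEX2, TCEAL5 and TCEAL6 were at or below 0.262 CPM in all libraries, and TCEAL2, TCEAL7, BEX1 and BEX5 were not analysed here.

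Of 10 other genes tested that have a TFIIS-type domain, 2 rose and 2 fell in the averaged OHT comparison, in which 16.2% of all genes rose and 17.8% fell: ELOA, the elongin A subunit, rose by 0.17 ± 0.03 and DIDO1 by 0.20 ± 0.05, while HDGFL2 fell by 0.23 ± 0.04 and PSIP1, which encodes the chromatin protein LEDGF, by 0.12 ± 0.04 (limma adjusted p from 2.50e-04 to 0.0250). The PSIP1 call was lost with trimmed-mean rescaling, at -0.11 ± 0.04 (limma adjusted p = 0.0606). With Dox 0 of 10 were called in the averaged comparison by limma, with 2 at an unadjusted p under 0.05, ELOA at 0.09 ± 0.03 and TCEANC at 0.30 ± 0.13. Over all genes tested, 4.77% rose and 3.37% fell in that comparison, and 4578 of 18674 had an unadjusted limma p under 0.05. For so few genes, 0 calls lie near those shares. Of 12 tested neighbours of the cluster on Xq22, 7 fell and 0 rose in the averaged OHT comparison, beside 17.8% and 16.2% of all genes, with a median of -0.26 against -0.03 over all genes tested. The counts were again 7 and 0 with trimmed-mean rescaling. Among them GPRASP2, a partner of G-protein-coupled receptors in sorting, fell by 0.44 ± 0.06, ARMCX2 by 0.36 ± 0.06 and ARMCX3, a mitochondrial armadillo-repeat protein, by 0.47 ± 0.09 (limma adjusted p from 1.34e-05 to 4.02e-04). With Dox 0 of these 12 were called by limma in the averaged comparison, with 5 at an unadjusted p under 0.05, beside the same shares over all genes.

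Of 26 pausing and elongation factors, 12 fell and 2 rose in the averaged OHT comparison, beside 17.8% and 16.2% of all genes. In the averaged Dox comparison 5 rose and 0 fell, beside 4.77% and 3.37% of all genes. With trimmed-mean rescaling these counts were 9 and 2 with OHT and 2 and 0 with Dox. ELL2, a subunit of the super elongation complex, fell by 0.39 ± 0.05 with OHT and NELFA, of the pausing factor NELF, rose by 0.39 ± 0.06. With Dox, AFF1, a scaffold of the super elongation complex, rose by 0.33 ± 0.07 and CCNT2, a cyclin of the pause-release kinase P-TEFb, by 0.26 ± 0.06 (limma adjusted p = 0.00758 and 0.0176), and the rescaled values were 0.29 ± 0.07 and 0.22 ± 0.06 (limma adjusted p = 0.00833 and 0.0300). Of the 12 subunits of RNA polymerase II, 2 rose and 0 fell with Dox, POLR2A by 0.25 ± 0.06 and POLR2K by 0.16 ± 0.05, and with OHT 2 rose and 1 fell. With rescaling POLR2K was no longer called with Dox (0.12 ± 0.05; limma adjusted p = 0.150) and the counts with OHT were 2 and 0. USP7 and USP11, deubiquitinases named in the study's title beside TCEAL1, were not called with Dox (0.06 ± 0.04 and -0.01 ± 0.04, averaged). USP11 fell with OHT, from 122 to 126 CPM in Ctrl to 94.6 to 108 CPM in OHT (-0.30 ± 0.06; limma adjusted p = 8.39e-04).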

How the data were processed

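All values come from 1 table of the whole series, in which 12 libraries in 4 groups of 3 are columns. Per the deposited table's name the authors gave CPM, scaled to 1000000 reads in every library. Tools named in the submitters' processing notes, for RNA-seq and ChIP-seq together, are STAR, DRAGEN, featureCounts, Bowtie, Bowtie2 and FastQC, with builds hg19 and mm10. Which of them made this table, its annotation and its strand setting are not given in the sources used here. Every value was a whole number of reads within 0.01 reads, and depth was 44466458 to 57694970 reads. The recovered reads of BEX4 and of TCEAL8 were even numbers in all 12 libraries. Whether both ends of a fragment were counted is not given in the sources used here. If they were, fragments are fewer than reads, and fits on the recovered reads would treat both ends as separate. A gene was tested if 3 or more libraries reached 0.5 CPM (18674 genes, all 10 members among them). limma 3.58.1 in R 4.3.3 fitted log2(CPM + 0.5) with 4 group means and trend moderation, two-sided, with Benjamini-Hochberg adjustment over all genes tested and a call at an adjusted p below 0.05. The 7 contrasts were each compound in each state of the other, their interaction and both averages. edgeR 4.0.16 and DESeq2 1.42.0 were run on the recovered reads as alternatives, beside other pseudocounts, filters and scalings and fits without each library. The limma step was tested on simulated data. Named genes are the members, USP7 and USP11, the genes of each list with the smallest p, and the nearest 3 profiles. Members and lists were chosen with earlier results of these data known.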

Additional observations from a re-analysis of the deposited data

How the results depend on the processing

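Of 1437 alternative fits of single members, 1387 kept the direction and the side of the threshold, and all 135 of the ratios to TCEAL1 did. Because TCEAL1 itself fell far, nearly any gene would keep its ratio call, so the 135 do not show that a relative kept its level. For OHT_Dox against Dox, TCEAL3 and TCEANC2 lost their call in 11 fits together, and 3 fits added a call, for BEX4 or TCEA2. The calls of TCEAL1, TCEAL9 and TCEAL8 held in every alternative run. Leaving out 1 library each moved the count of members called for OHT_Dox against Dox between 2 and 4. The main fit took the libraries as unpaired, and whether replicate numbers pair them is not known. For OHT against Ctrl, libraries of the same number correlated at 0.330, 0.195 and 0.0455, and those of different numbers at -0.262 to 0.0786. For Dox against Ctrl the values were -0.00596, 0.0734 and 0.127, and -0.135 to 0.050. A replicate block added 1 call, BEX4 for Dox against Ctrl (0.62, limma adjusted p = 0.0380). Over all genes it moved the calls of that comparison from 1061 and 487 to 1767 and 758. For OHT_Dox against Dox it moved them from 2153 and 2709 to 2362 and 3060. The remaining 36 changes were estimates near 0 that crossed it and were called in neither fit; the cause was not tested. For TCEA1, Dox against Ctrl became -0.019 with trimmed-mean rescaling, -0.022 with edgeR and -0.020 with DESeq2, and for TCEANC2, OHT_Dox against OHT became -0.012, -0.00070 and -0.00044. DESeq2 gave no adjusted p for some members of low level, and those are not counted. Leaving out 1 library each, OHT against Ctrl ran from -0.0044 to 0.065 for TCEAL4, from -0.00014 to 0.065 for TCEA1 and from -0.092 to 0.057 for TCEA2, and OHT_Dox against Dox from -0.13 to 0.043 for TCEA2. Dox against Ctrl ran from -0.054 to 0.0044 for TCEAL3 and from -0.0067 to 0.056 for TCEA1, and OHT_Dox against OHT from -0.17 to 0.13 for BEX4 and from -0.024 to 0.087 for TCEANC2. The interaction ran from -0.15 to 0.081 for TCEAL1, from -0.024 to 0.098 for TCEAL4 and from -0.14 to 0.040 for TCEA2. The averaged change with Dox ran from -0.039 to 0.016 for TCEAL8, and that with OHT from -0.039 to 0.0051 for TCEA1, from -0.074 to 0.023 for TCEA2 and from -0.11 to 0.017 for TCEA3. Over all genes, the number that fell for Dox against Ctrl ran from 112 without Dox replicate 2 to 906 without Ctrl replicate 1, so the background beside the members' counts moves with single libraries. The levels of BEX4 and TCEA3, at 38 to 151 reads a library, limit what could be detected for them.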
